A study of Homo sapiens with 17 samples.

Results

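The CLK kinases CLK1, CLK2, CLK3 and CLK4 and the L-type cyclins CCNL1 and CCNL2 were followed in HEK-293T cells, a human embryonic kidney line, during a short exposure to emetine, an alkaloid that blocks translation elongation. The 6 genes were taken by symbol from the 19222 genes of the 1 h table, and all 6 were also among the 9982 genes of the 2 h tables. In the 1 h experiment, cells received 500 µM 4-thiouridine (s4U) for 1 h, either with 1.8 µM emetine (3 libraries) or without it (3 libraries, called untreated). 1 untreated library and 1 library with 1.8 µM emetine came from cells given no s4U. The 2 h experiment had 3 libraries of each of 3 kinds, untreated, low-dose emetine (1.8 µM) and high-dose emetine (240 µM), labelled as given 250 µM s4U. The labels do not say whether libraries of a group came from separate cultures, so the p-values measure only the spread between libraries, which may be technical.

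CLK kinases are nuclear kinases that phosphorylate SR proteins, the splicing factors with domains rich in serine and arginine, and this releases SR proteins from nuclear speckles. They carry the LAMMER signature, a stretch of the kinase domain that gives the family its other name, with 2 residues changed in CLK3. L-type cyclins also sit in nuclear speckles, bind the CDK11 kinases and act in transcription and splicing. Some transcripts of both families are known for retained introns, skipped exons and rapid turnover.

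The coding sequences show how the members differ at the base that most often changes without changing the amino acid. The LAMMER signature is printed for the CLK kinases because the same stretch can be compared in all of them, with the third base of each codon in capitals (GENCODE 44 transcripts on GRCh38, MANE Select, 5′ to 3′, coding strand).
CLK1: gaGcaTttAgcAatGatGgaAagGatTctT
CLK2: gaGcaTctAgcCatGatGgaAagGatCttG
CLK3: gaGcaCctGgtGatGatGgaGaaGatCctA
CLK4: gaGcaCctGgcAatGatGgaAcgAatAttA
In these 10 codons, 4 of CLK1, 7 of CLK2, 9 of CLK3 and 5 of CLK4 ended in G or C. Not every base difference shown is silent, as CLK3 differs from CLK1 in 2 of the 10 residues. It has V and K in place of the A and R of LAMMER. CLK2 and CLK4 differ from CLK1 in 0 residues. The stretch spans codons 386 to 395 in CLK1, 388 to 397 in CLK2, 381 to 390 in CLK3 and 384 to 393 in CLK4.

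For the cyclins, the longest run of amino acids that both proteins share is shown, 37 residues at codons 182 to 218 of CCNL1 and 177 to 213 of CCNL2.
CCNL1: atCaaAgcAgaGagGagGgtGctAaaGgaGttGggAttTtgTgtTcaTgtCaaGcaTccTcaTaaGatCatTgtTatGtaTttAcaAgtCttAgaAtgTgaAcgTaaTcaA
CCNL2: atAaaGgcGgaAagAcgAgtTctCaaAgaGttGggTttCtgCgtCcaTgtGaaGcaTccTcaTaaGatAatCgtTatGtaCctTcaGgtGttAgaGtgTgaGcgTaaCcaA
The amino acids are identical, but 25 of the 111 bases differ. Of the 37 codons, 14 in CCNL1 and 19 in CCNL2 ended in G or C.

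Over the whole coding sequence, the share of codons ending in G or C split the family. It was 35.1% in CLK1, 36.9% in CLK4 and 43.8% in CCNL1, against a median of 59.5% over 12668 genes, and these values stood at percentiles 8.07, 11.4 and 24.2. It was 61.8% in CLK2, 67.8% in CCNL2 and 70.5% in CLK3, at percentiles 53.7, 63.6 and 68.6. CLK1 lies at chr2:200853009-200864691 on the minus strand, CLK2 at chr1:155262868-155278491 on the minus strand, CLK3 at chr15:74598500-74645414 on the plus strand and CLK4 at chr5:178602664-178630615 on the minus strand. CCNL1 lies at chr3:157146508-157160760 and CCNL2 at chr1:1385711-1399335, both on the minus strand. The annotated transcripts are short, from 1847 bases in CLK1 to 3112 in CCNL2, against a median of 3422 bases.

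The annotation lists 16 transcripts with a retained intron for CCNL1, 9 for CCNL2, 8 for CLK1, 8 for CLK3, 7 for CLK4 and 0 for CLK2, where the median gene has 1. The motif ATTTA, read on the transcript strand only, occurs 4 times in the 3′ UTR of CLK4, 2 times in that of CCNL1 and once each in those of CLK1, CLK3 and CCNL2, and is not found in that of CLK2. It occurs in 73.8% of all 3′ UTRs compared. Such letters are a description and mark no site. CLK2 overlaps HCN3, and CLK3 overlaps EDC3, on the opposite strand, and the strand setting of the counting is not given in the sources used here. CLK2 also has a processed copy, CLK2P1, which held 34 to 138 reads per library beside 2045 to 5764 for CLK2.

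Reads given to a gene numbered 22246279 to 40018063 per library with s4U. All 6 members passed the read minimum of the tests. CLK4, the lowest, had 312 to 838 reads per library, and CCNL2, the highest, had 2946 to 6378. Markers of HEK-293T cells summed to 248 to 338 CPM (counts scaled to a common library size), mostly from NEFM and NEFL. PAX2 and LHX1, from the same list, were low, at 1.17 to 2.89 and 2.38 to 4.06 CPM. Markers of hepatocytes summed to at most 0.452 CPM, and PTPRC and CD3E of leukocytes were not listed. Of the erythroid markers, HBA1 was read at 0.247 to 2.70 CPM and HBG1 at no more than 0.0413 CPM. COL1A1 was read at 19.4 to 27.5 CPM, without COL1A2 and DCN (at most 0.0450 and 0.160 CPM). Emetine replicate 3 stood apart from replicates 1 and 2. The deviation of its genes from the mean of its group rose with transcript length (Spearman 0.76 over 11208 genes, which share the library). Deviations from a group mean balance each other within a gene. The fall with length in emetine replicates 1 and 2 (−0.68 and −0.67) is therefore not a separate observation.

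In untreated cells, CLK1, CCNL1 and CLK4 consisted mostly of new RNA after 1 h of labeling. The fraction new is the share of a gene's reads that come from RNA made during the hour, estimated from their T-to-C conversions. In CLK1 it was 84.1%, 87.1% and 91.7% in the 3 untreated libraries, which stood at percentile 99.7 of 10763 genes. In CCNL1 it was 76.7%, 87.4% and 86.8% (percentile 99.5), and in CLK4 it was 70.5%, 82.2% and 82.6% (percentile 99.3). Old RNA was the minor part of the reads of all 3 genes in every untreated library, whereas the median gene was only 9.26% to 14.7% new in the same libraries.

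CLK3, CLK2 and CCNL2 held more RNA from before the hour. The fraction new was 35.6%, 35.4% and 43.8% in CLK3 (percentile 90.9) and 28.8%, 38.2% and 44.1% in CLK2 (percentile 90.2). In CCNL2 it was 12.5%, 19.0% and 24.4% (percentile 68.9). The order of the means was CLK1, CCNL1, CLK4, CLK3, CLK2 and CCNL2. The range of CCNL1 overlapped those of CLK1 and CLK4, while CLK1 lay above CLK4 in every library. The ranges of CLK3 and CLK2 overlapped, and no range of the first 3 genes reached those of the others. Untreated replicate 1 had the lowest value in 5 of the 6 genes, and its median over all genes was also the lowest.

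Under the assumption of a steady state, these values gave half-lives of 19.9 ± 3.0 min for CLK1, 23.1 ± 4.8 min for CCNL1 and 27.3 ± 5.8 min for CLK4 (SD, n = 3). They were 87.3 ± 13.1 min for CLK3, 93.4 ± 26.1 min for CLK2 and 219 ± 83.5 min for CCNL2, while the fraction new of the median gene gave 321 min. The 2 cyclins thus lay far apart in the family's range.

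**Figure D1:**
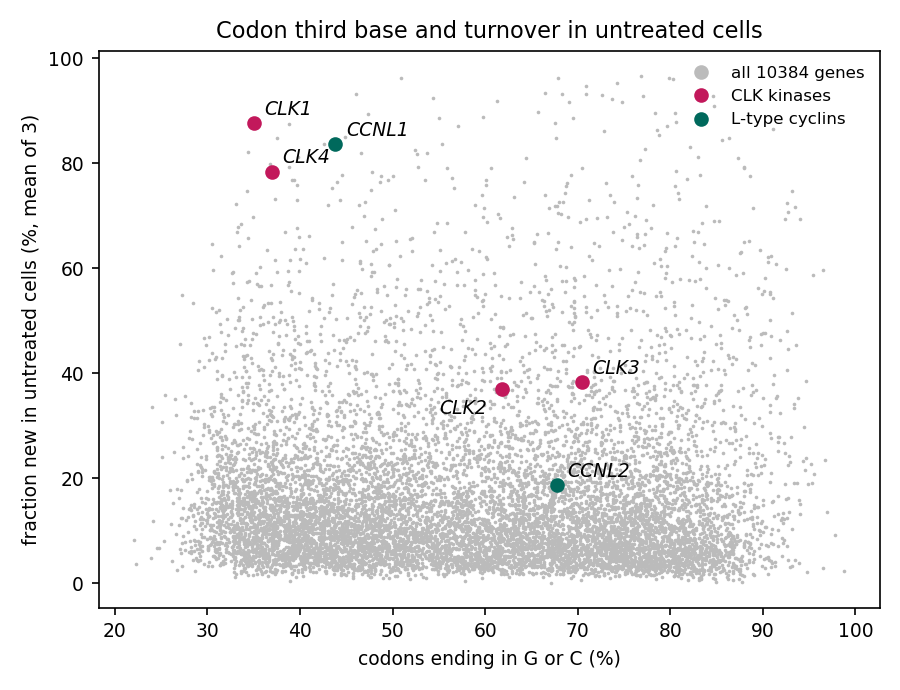
Share of codons ending in G or C (x axis, %) and mean fraction new in the 3 untreated libraries (y axis, %), with 1 point per gene. CLK1, CLK4 and CCNL1 lie at 35.1% to 43.8% on the x axis and near the top of the y axis, and CLK2, CLK3 and CCNL2 lie at 61.8% to 70.5% and lower. Over all 10384 genes plotted, the Spearman correlation was −0.06.

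The 3 members with the fewest codons ending in G or C were those with the highest fraction new. Across all 10384 genes with both values there was almost no such order (Spearman −0.06, across genes, which share libraries and are not independent).

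Raw conversions split the members the same way without a mixture model, although this share also depends on the T positions per read, which the mixture takes into account. Reads with 2 or more conversions made up 73.6% to 77.9% of CLK1 reads, 61.6% to 72.6% of CCNL1 reads and 59.9% to 73.9% of CLK4 reads in the untreated libraries with s4U. They made up 24.4% to 28.2% in CLK3, 23.4% to 33.2% in CLK2 and 9.24% to 15.4% in CCNL2. Without s4U, such reads were near absent. In CLK1 there were 0 of 1026 reads in the untreated library (Wilson 95% interval up to 0.373%) and 1 of 1788 with emetine (0.0559%). The largest share in the libraries without s4U was 0.157% (CCNL1, 2 of 1274 reads). These intervals cover counting error only.

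Whether emetine changed the amount of these transcripts was asked first of their level in CPM. These are relative levels in bulk RNA, in which fewer cells and less RNA per cell cannot be told apart. CLK1 was read at 27.5, 29.8 and 32.4 CPM in the untreated libraries and at 44.8, 45.7 and 37.3 CPM with emetine. CCNL1 went from 36.4, 40.9 and 43.1 CPM to 70.6, 68.4 and 60.8 CPM, and CLK4 went from 12.2, 14.5 and 14.7 CPM to 20.6, 20.9 and 22.0 CPM. In these 3 genes every emetine library was above every untreated library.

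CLK2 was also apart, at 101, 91.1 and 96.5 CPM without and 142, 144 and 104 CPM with emetine. CLK3 was read at 43.3, 42.4 and 42.1 CPM against 51.9, 53.1 and 42.4 CPM. CCNL2 was read at 147, 128 and 139 CPM against 170, 159 and 129 CPM. In CLK3 and CCNL2 the groups overlapped, because emetine replicate 3 lay among the untreated libraries. Groups lay apart upward in 4 of 6 members and in 19.5% of the 13776 genes tested. With 3 libraries against 3, an exact permutation test of a single gene cannot go below p = 0.1.

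**Figure D2:**
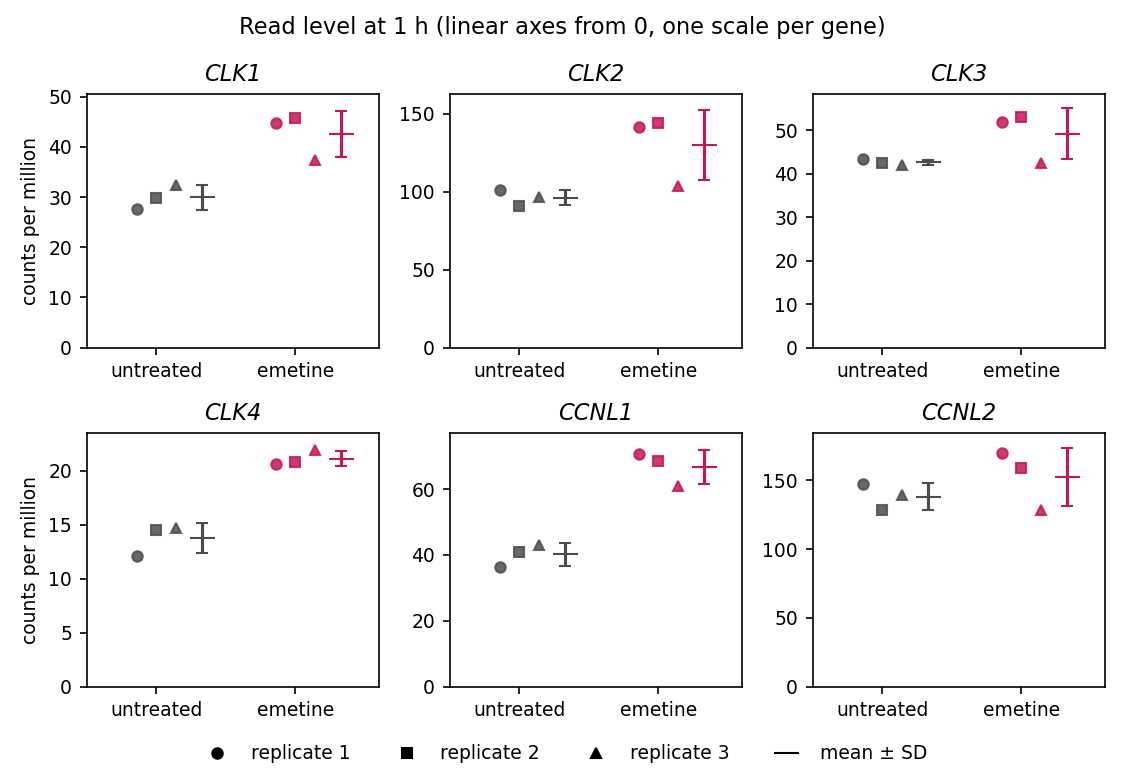
Read level of each gene in CPM (y axis, linear from 0, 1 scale per gene) in the 3 untreated and 3 emetine libraries with s4U. Points are libraries, with 1 symbol per replicate number, and the bars give the mean and SD. Emetine replicate 3, the triangle, is the lowest of the emetine libraries in every gene but CLK4.

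CCNL1 and CLK4 rose in level. In the edgeR quasi-likelihood test over 13776 genes, 2.64% of genes were raised at a Benjamini-Hochberg adjusted p under 0.05, and 2 of the 6 members were. CCNL1 rose by a log2 fold change of 0.73 ± 0.10 (SE, adjusted p = 0.0116), a 1.66-fold change. CLK4 rose by 0.62 ± 0.12 (adjusted p = 0.0325), a 1.53-fold change.

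CLK1 just missed the threshold at 0.51 ± 0.11 (adjusted p = 0.0517), and passed it in 4 of 13 settings. Among these were DESeq2 (adjusted p = 0.00618) and no filter on low counts (adjusted p = 0.0374). It did not pass with RLE size factors (edgeR, adjusted p = 0.0693) or spike-in scaling (0.179). Nor did it pass when any library but emetine replicate 3 was left out (0.0968 to 0.261). CLK2 had 0.43 ± 0.13 (adjusted p = 0.126), CLK3 had 0.21 ± 0.11 (adjusted p = 0.269) and CCNL2 had 0.14 ± 0.12 (adjusted p = 0.469). The median gene changed by 0.03. The log2 fold change was positive in all 6 members under every alternative tried.

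These calls changed when single libraries were left out. Without any 1 of the untreated libraries, neither gene passed: the adjusted p of CCNL1 was 0.0962, 0.0955 and 0.0731 without untreated replicates 1, 2 and 3, and that of CLK4 was 0.174, 0.145 and 0.115. Without emetine replicate 1 or 2, CCNL1 alone remained called and CLK4 had an adjusted p of 0.0789 or 0.0634. Without emetine replicate 3, all 6 members were called, with log2 fold changes from 0.25 (CCNL2) to 0.80 (CCNL1) and adjusted p between 1.13e-05 and 0.0203, and 1367 genes were raised in place of 363. With the trend on transcript length removed, 5 members were called, all but CCNL2 (0.07, adjusted p = 0.648). With scaling to spike-in reads, the log2 fold changes were 0.84 (CCNL2) to 1.41 (CCNL1) where the median gene had 0.71, and no member was called (adjusted p = 0.129 for CCNL1 and 0.168 for CLK4).

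The pair of libraries without s4U gave a second look at the level, with 1 library a group and therefore no test. The CPM of CLK2 was 105 without and 159 with emetine, a log2 ratio of 0.59 (exact 95% counting interval 0.52 to 0.66). CCNL1 had 54.0 and 81.4 CPM, a log2 ratio of 0.59 (0.49 to 0.69). CLK4 had 18.4 and 26.4 CPM (0.52, interval 0.35 to 0.69), CLK3 had 42.0 and 56.6 CPM (0.43, 0.32 to 0.54) and CLK1 had 43.5 and 56.3 CPM (0.37, 0.26 to 0.48). CCNL2 was alone in having no higher value with emetine, at 173 and 169 CPM (−0.03, interval −0.09 to 0.03). The median of 12385 genes was 0.00, and the 5 higher members stood at percentiles 89.5 to 95.7. The untreated library without s4U read every member but CLK3 above all untreated libraries with s4U. Those reached at most 32.4 CPM in CLK1, 43.1 in CCNL1, 14.7 in CLK4, 101 in CLK2 and 147 in CCNL2. CPM were scaled over 8 libraries here and over 6 there. Whether s4U lowers the level read was not tested. The emetine effect with s4U did not differ from that without s4U beyond the spread for any member in an edgeR interaction test (adjusted p = 0.986 for each), although 1 library without s4U per group leaves this test wide.

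Emetine was next compared for the fraction new. CLK1 was at 84.1%, 87.1% and 91.7% without and 72.0%, 72.5% and 78.2% with emetine. CCNL1 went from 76.7%, 87.4% and 86.8% to 56.1%, 58.6% and 59.4%, and CLK4 went from 70.5%, 82.2% and 82.6% to 53.2%, 56.0% and 53.5%. The emetine libraries of CCNL1 and CLK4 were within 4 percentage points of each other and all below the lowest untreated library.

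CLK2 had 28.8%, 38.2% and 44.1% without and 23.4%, 24.7% and 25.4% with emetine. CLK3 had 35.6%, 35.4% and 43.8% against 32.5%, 34.6% and 31.8%. CCNL2 had 12.5%, 19.0% and 24.4% against 12.5%, 13.2% and 12.6%, so that its groups overlapped. Every emetine library was below every untreated library in 5 of 6 members and in 16.8% of 10763 genes.

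**Figure D3:**
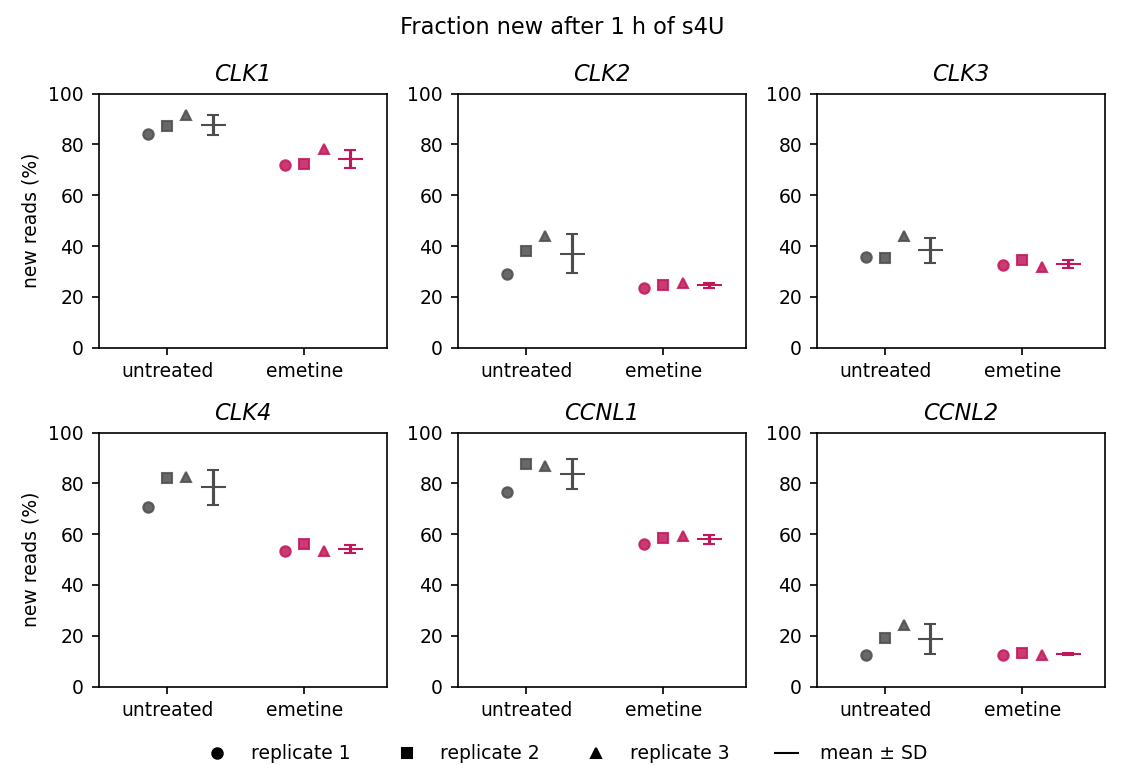
Fraction new of each gene (y axis, % of reads, 0 to 100) after 1 h of s4U in the 3 untreated and 3 emetine libraries. Points are libraries, with 1 symbol per replicate number, and the bars give the mean and SD. CCNL1 and CLK4 drop from means of 83.6% and 78.4% to 58.0% and 54.2%, and CCNL2 has libraries of both groups near 12.5%.

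CCNL1, CLK4 and CLK1 fell in fraction new. In the limma test on the logit, 4.83% of the 10763 genes were lowered at an adjusted p under 0.05, and 3 of the 6 members were. CCNL1 changed by −1.35 ± 0.26 (logit, SE, adjusted p = 0.000391), CLK4 by −1.15 ± 0.26 (adjusted p = 0.00238) and CLK1 by −0.93 ± 0.28 (adjusted p = 0.0294). CLK2 had −0.58 ± 0.22 (adjusted p = 0.107), CCNL2 −0.42 ± 0.21 (adjusted p = 0.317) and CLK3 −0.23 ± 0.22 (adjusted p = 0.694). The median gene had −0.16, and untreated replicate 3 had the highest median fraction new (14.7%).

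CCNL1 passed in all 15 settings tried, with adjusted p of at most 0.0471. CLK4 failed only without untreated replicate 3 (adjusted p = 0.0770), and it had too few reads for a minimum of 500. CLK1 failed without untreated replicate 2 or 3 (adjusted p = 0.106 and 0.217) without emetine replicate 1, 2 or 3 (0.271, 0.237 and 0.0990), and with the minimum lowered to 50 reads (0.0961). Without untreated replicate 1, the library with the lowest fraction new, CLK2 (−0.77, adjusted p = 0.00603) and CCNL2 (−0.63, adjusted p = 0.0156) were called as well. CLK2 was also called with fractions centered on the library medians (−0.46, adjusted p = 0.0234) or weighted by read depth (−0.58, adjusted p = 0.0128).

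The level and the fraction new were then combined into labeled and unlabeled reads, the CPM from RNA made during the hour and before it. The unlabeled reads of CCNL1 were 8.49, 5.15 and 5.71 CPM without and 31.0, 28.3 and 24.7 CPM with emetine. CLK4 had 3.58, 2.58 and 2.57 CPM against 9.64, 9.18 and 10.2 CPM, and CLK1 had 4.37, 3.83 and 2.69 CPM against 12.5, 12.6 and 8.14 CPM. In these genes the lowest emetine library was well above the highest untreated library.

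CLK2 had 72.0, 56.3 and 54.0 CPM of unlabeled reads without and 108, 108 and 77.6 CPM with emetine. CLK3 had 27.9, 27.4 and 23.6 CPM against 35.1, 34.7 and 28.9 CPM, and CCNL2 had 129, 104 and 105 CPM against 148, 138 and 113 CPM. The groups were apart in CLK2 and CLK3 and overlapped in CCNL2. That is 5 of 6 members, beside 23.9% of 10763 genes.

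Unlabeled reads of CCNL1, CLK4, CLK1 and CLK2 rose. The limma test on log2(CPM + 0.5) raised 7.30% of the 10763 genes at an adjusted p under 0.05, and 4 of the 6 members. The log2 change, which is understated for low values on this scale, was 2.06 ± 0.19 in CCNL1 (SE, adjusted p = 0.000689), 1.59 ± 0.16 in CLK4 (adjusted p = 0.00106), 1.49 ± 0.22 in CLK1 (adjusted p = 0.00532) and 0.68 ± 0.16 in CLK2 (adjusted p = 0.0357). CLK3 had 0.32 ± 0.12 (adjusted p = 0.158) and CCNL2 0.24 ± 0.13 (adjusted p = 0.268), where the median gene had 0.04. CCNL1, CLK4 and CLK1 were called without any 1 library as well. CLK2 was not called without untreated replicate 2 or 3 (adjusted p = 0.165 and 0.193) or emetine replicate 1 or 2 (0.0823 and 0.0584), and without emetine replicate 3 all 6 members were called.

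No member passed the test in labeled reads. CCNL1 had 27.9, 35.8 and 37.4 CPM of labeled reads without and 39.6, 40.1 and 36.1 CPM with emetine. CLK1 had 23.2, 25.9 and 29.7 CPM against 32.2, 33.1 and 29.2 CPM, and CLK4 had 8.57, 11.9 and 12.2 CPM against 10.98, 11.7 and 11.7 CPM. The groups overlapped in all 3 genes.

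The mean labeled reads of CLK2 were 35.5 ± 6.7 CPM without and 31.7 ± 4.7 CPM with emetine (SD, n = 3), those of CLK3 were 16.3 ± 1.9 and 16.3 ± 2.5 CPM, and those of CCNL2 were 25.6 ± 7.8 and 19.4 ± 2.8 CPM. The limma test called 0.892% of the 10763 genes in either direction and 0 of the 6 members, none of which had an unadjusted p under 0.05 either. The log2 changes ran from −0.36 ± 0.22 in CCNL2 (adjusted p = 0.554) to 0.26 ± 0.22 in CLK1 (adjusted p = 0.691), with a median over all genes of −0.14. Without untreated replicate 1, CCNL2 was called lower (−0.56, adjusted p = 0.0327). The standard errors of the members ran from 0.22 to 0.24, so a small change in labeled reads was not detectable beyond the spread between these libraries.

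**Figure D4:**
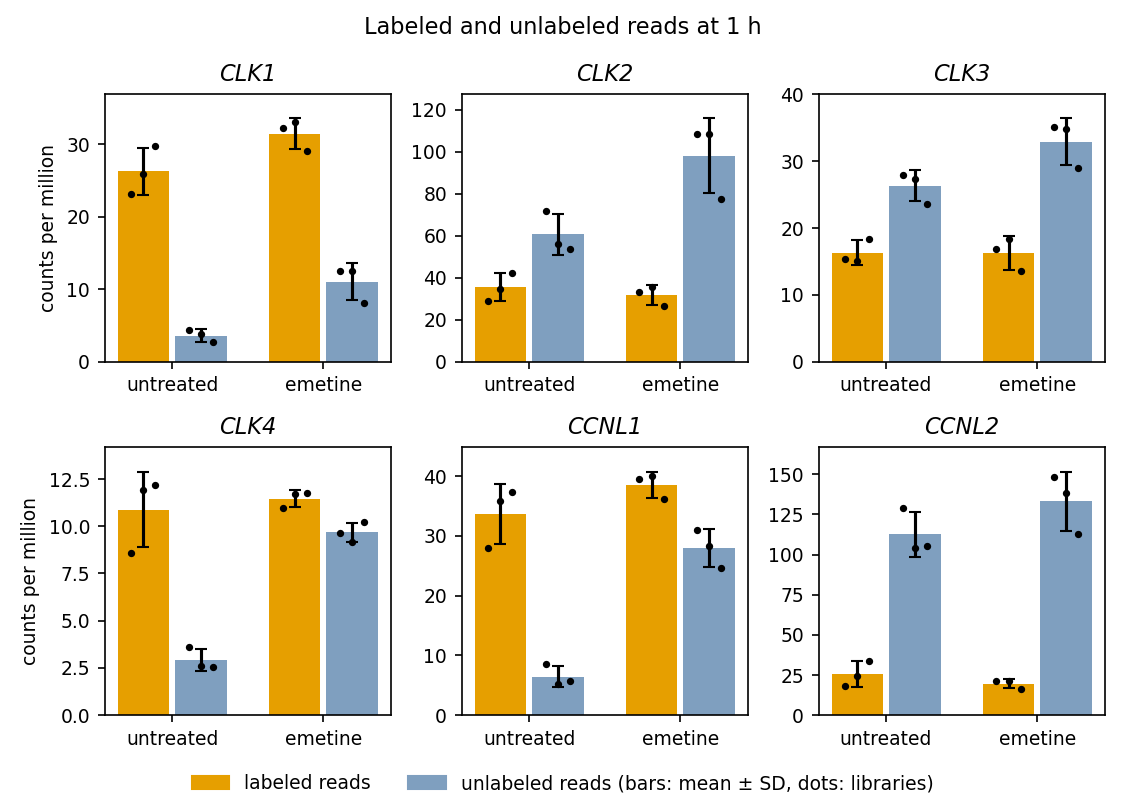
Labeled reads (orange) and unlabeled reads (blue) of each gene in CPM (y axis, linear from 0, 1 scale per gene) in untreated and emetine libraries. Bars are means with SD over 3 libraries and dots are libraries. The blue bar of CCNL1 goes from 6.45 to 28.0 CPM, while its orange bar goes from 33.7 to 38.6 CPM with overlapping dots.

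Set beside the turnover in untreated cells, the 3 members with the highest fraction new had the largest changes of unlabeled reads. The changes of CCNL1, CLK4 and CLK1 stood at percentiles 99.8, 99.4 and 99.2 of all genes, and those of CLK2, CLK3 and CCNL2 at 93.6, 78.8 and 72.2. The fraction new of the untreated libraries enters both measures, so this order is a description without a test.

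**Figure D5:**
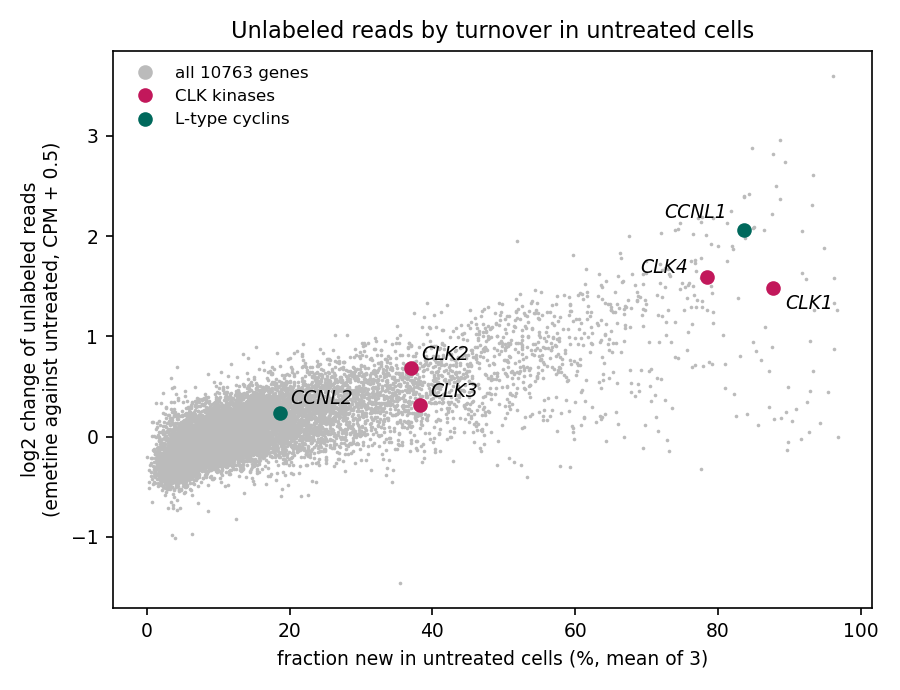
Mean fraction new in the untreated libraries (x axis, %) and log2 change of unlabeled reads with emetine (y axis, on CPM + 0.5), with 1 point for each of 10763 genes. CLK1, CLK4 and CCNL1 lie at the upper right with changes of 1.49 to 2.06, and CCNL2 lies within the dense cloud at 0.24.

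Reads that cross a splice junction were compared because some transcripts of these genes are known for retained introns and skipped exons. The junction share was highest in CLK1, at 72.8%, 76.7% and 70.2% of reads without and 68.6%, 78.7% and 67.2% with emetine. It was lowest in CCNL2, at 29.4%, 33.3% and 29.3% against 30.9%, 31.1% and 41.4%. CCNL1 had 38.1% ± 4.3 without and 39.7% ± 1.6 with emetine, CLK4 had 50.7% ± 5.5 and 52.8% ± 5.0, CLK2 had 51.8% ± 5.0 and 55.0% ± 4.4, and CLK3 had 62.6% ± 5.0 and 63.5% ± 3.2 (SD, n = 3). The groups overlapped in every member.

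No gene was called in the limma test on the logit of this share (0% of 10685 genes, with 144 at an unadjusted p under 0.05, and 0 of the 6 members on either count). The change of the members ran from −0.07 ± 0.22 in CLK1 to 0.17 ± 0.21 in CCNL2 (logit, SE). The high junction share of emetine replicate 3 in CCNL2 went with a high median over all genes in that library (35.1%, against 24.5% to 31.1% in the other 5). Reads that span an exon-intron boundary were not counted, and retained introns themselves were therefore not analysed here.

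The fraction new was also estimated apart for junction reads and other reads of each gene. In CLK2 the junction reads were 20.8%, 31.6% and 38.3% new in the untreated libraries, and the other reads were 37.2%, 47.1% and 49.1% new. In CLK3 the values were 28.7%, 29.9% and 38.2% for junction reads and 48.6%, 49.1% and 52.6% for other reads. Other reads were newer in all 6 libraries with s4U in CLK2, CLK3 and CCNL2, in 5 in CLK1 and CLK4, and in 4 in CCNL1.

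The gap in untreated cells was 17.9 ± 3.0 percentage points in CLK3 and 14.2 ± 3.0 in CLK2 (SD, n = 3). It was 6.52 ± 3.80 in CCNL2, 6.25 ± 9.15 in CLK4, 4.30 ± 7.21 in CLK1 and 1.20 ± 2.94 in CCNL1, and in these last 3 genes it was within its own spread. The median gene had a gap of 2.96 points over the 6 libraries, and other reads were newer in all 6 in 51.0% of 7699 genes. With emetine the gap was 9.61 ± 3.81 points in CLK3 and 9.54 ± 1.97 in CLK2, and in CCNL1 it was 9.47 ± 4.47. It was 7.78 ± 7.73 in CLK4, 6.97 ± 1.21 in CCNL2 and 6.77 ± 0.22 in CLK1, so with emetine only that of CLK4 was about as large as its spread. No test of the gap was made.

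Each member was matched with the 2 genes whose pattern over the 6 libraries with s4U was most alike, by the root mean square difference over 12 values (centered log2 CPM and logit fraction new). CCNL1 was nearest to MED26 (0.15) and DDIT4 (0.20), followed by CLK4 (0.21), where the median gene was at 2.24. CLK4 was nearest to ZNFX1 (0.12) and ZNF764 (0.14), with CCNL1 at rank 18. CLK1 was nearest to JUNB (0.26) and EID2B (0.27), with CCNL1 at rank 23 and CLK4 at rank 59.

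CLK2 was nearest to ZNF75A (0.08) and POLM (0.12), CLK3 to CBX7 (0.06) and PSMC3IP (0.11), and CCNL2 to BET1 (0.07) and TIMM9 (0.08). DDIT4, a stress-induced inhibitor of mTORC1 signaling, had a fraction new of 88.1% without and 56.9% with emetine, beside 83.6% and 58.0% in CCNL1. CCNL2 was at rank 3631 from CCNL1, further than each of the CLK kinases, so that by this distance CCNL1 was closer to the kinases than to the other cyclin. The logit fraction new was not centered, so the distance includes how high it was as well as how it changed.

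Genes that work with the family or resemble it were read from the same tests, in the main setting only. Without untreated replicate 1, 2 or 3, only 4, 5 or 18 of all genes were raised in level. Whether the calls of the listed genes hold in such settings was not examined. Among the other SR protein kinases, 0 of 3 tested (SRPK1, SRPK2 and PRPF4B) passed in level or in fraction new, with a median log2 fold change in level of 0.21. Over all genes, 2.64% were raised in level and 4.83% lowered in fraction new. At an unadjusted p under 0.05 there was 1 of 3 in each. Over all genes these were 2056 higher and 958 lower of 13776 in level, and 124 and 1655 of 10763 in fraction new. PRPF4B, a kinase of the spliceosome, had the smallest p in both tests, with 0.40 ± 0.10 in level (adjusted p = 0.0835), and it rose in unlabeled reads by 0.52 ± 0.11 (log2, limma, adjusted p = 0.0270). SRPK3 was too low to be tested.

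The SR proteins, the substrates of CLK kinases, did not pass in either direction in level, fraction new, labeled or unlabeled reads (0 of 14 in each). Over all genes, 2.64% were raised in level, 4.83% lowered in fraction new, 0.892% called in labeled reads and 7.30% raised in unlabeled reads. The count of 0 of 14 is near these shares. At an unadjusted p under 0.05 there was 1 of 14 in labeled reads and 0 in the others. Over all 10763 genes these were 176 higher and 1138 lower in labeled reads, and 2091 and 761 in unlabeled reads. The median log2 fold change of the SR proteins in level was −0.02. SRSF9 had the smallest p on the lower side of level at −0.26 ± 0.13 (edgeR, adjusted p = 0.251) and SRSF10 on the higher side at 0.16 ± 0.08 (adjusted p = 0.274). SRSF3 had 8.71% new reads without and 12.4% with emetine (limma, adjusted p = 0.340), and SRSF12 had 16.8% and 13.0% (adjusted p = 0.566).

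Among the DYRK and HIPK kinases, the nearest relatives of the CLK kinases, 1 of 8 tested rose in level (2.64% of all genes). In fraction new 0 were called (4.83% of all genes lowered). There 3 of the 8 had an unadjusted p under 0.05, beside 124 genes higher and 1655 lower of all 10763. DYRK1A, which acts in neuronal development and also phosphorylates splicing factors, rose in level by 0.59 ± 0.11 (edgeR, adjusted p = 0.0345) and in unlabeled reads by 0.90 ± 0.14 (limma, adjusted p = 0.00542). DYRK3, a kinase that dissolves stress granules and speckles, had 38.7% new reads without and 24.1% with emetine (limma, adjusted p = 0.0658). On the other side, DYRK4 had the only negative level change (−0.14 ± 0.15, edgeR, adjusted p = 0.563) and HIPK3 the only positive change in fraction new (24.4% to 27.6% new, limma, adjusted p = 0.774).

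Among the CDK partners and relatives of the L-type cyclins, 2 of 15 tested rose in level (2.64% of all genes) and the same 2 genes fell in fraction new (4.83% of all genes). They were CCNT2 and CCNT1, the cyclins of CDK9 in the elongation factor P-TEFb, and CCNT1 is named because of its values. CCNT2 rose in level by 0.80 ± 0.17 (edgeR, adjusted p = 0.0447), and its fraction new went from 53.9% to 31.0% (limma, adjusted p = 0.00495). CCNT1 rose by 0.71 ± 0.15 (edgeR, adjusted p = 0.0497), and its fraction new went from 54.9% to 36.4% (limma, adjusted p = 0.0363). The level calls of CCNT2 and CCNT1 lay just under the threshold, and other settings were not examined for them.

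CDK11A, a kinase that binds the L-type cyclins, had a level change of 0.60 ± 0.13 (edgeR, adjusted p = 0.0564) and rose in unlabeled reads by 0.60 ± 0.15 (limma, adjusted p = 0.0446). It is also named because of its values, and its reads are hard to tell from those of the near-identical CDK11B. CDK11B was read at 54.4 CPM in untreated cells, beside 10.6 CPM for CDK11A, and was not called. Its change was 0.09 ± 0.10 in level (edgeR, adjusted p = 0.580) and 0.11 ± 0.11 in unlabeled reads (limma, adjusted p = 0.533). MNAT1, of the CDK-activating kinase, had the smallest p on the lower side of level (−0.14 ± 0.12, edgeR, adjusted p = 0.498), and CCNH, its cyclin, that on the higher side of fraction new (8.38% to 9.20% new, limma, adjusted p = 0.874). The median level change of the 15 genes was 0.17.

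At 2 h, only the authors' mean of normalized counts over the 9 libraries was used, which is given without an error. It was 2058 for CCNL1, 1735 for CLK4, 1377 for CLK1, 1221 for CCNL2, 823 for CLK2 and 425 for CLK3. Among the 9951 genes in both experiments, CLK4 stood at percentile 72.9 at 2 h and 21.3 at 1 h, and CLK1 at 66.2 and 42.9. CCNL1 stood at 77.8 and 56.3. CLK2 stood at 48.97 and 79.3, CCNL2 at 62.5 and 85.1, and CLK3 at 27.3 and 51.2. The 3 short-lived transcripts stood higher at 2 h and the other 3 lower. The 1 h libraries were made from mRNA and those of 2 h from total RNA, and the 2 h mean includes 6 emetine libraries out of 9, so kit, time and dose cannot be told apart here.

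Per kilobase of annotated transcript, the 1 h level in untreated cells was 44.7 ± 2.3 CPM in CLK2, 44.4 ± 3.1 in CCNL2, 23.0 ± 0.4 in CLK3, 17.3 ± 1.5 in CCNL1, 16.2 ± 1.3 in CLK1 and 5.51 ± 0.57 in CLK4 (SD, n = 3). CLK2 and CCNL2 did not differ beyond their spread, and neither did CCNL1 and CLK1. CLK4 was below all the others.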

How the data were processed

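For 1 h, the authors trimmed adapters (cutadapt), mapped reads to hg38 with hisat-3n and tallied T positions and T-to-C conversions per read with bam2bakR. The deposited table holds read counts without normalization. For 2 h, the deposited signal is the authors' mean of counts divided by spike-in size factors. Columns of the authors' own comparisons (fold changes and p-values by dose) were not used, nor were the 2 h size factors. The annotation and strand setting used for counting are not given in the sources used here.

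The libraries were grouped by labels. Counts were tested with edgeR 4.0.16 (TMM, quasi-likelihood, no covariate) over genes with more than 100 counts in R 4.3.3. The fraction new was the weight of a 2-component binomial mixture, with the background rate from the library without s4U of the same treatment, bounded to 0.001 to 0.999, where every library had 100 reads or more. Its logit, labeled and unlabeled log2(CPM + 0.5) and junction shares were tested with limma 3.58.1 (trend and robust). Benjamini-Hochberg adjustment ran over all genes tested, and calls are at 0.05. Half-lives are −ln 2 × 1 h / ln(1 − fraction new). Both steps were tested on simulated data. Symbols were matched to GENCODE 44 (15275 by symbol, 851 by an older symbol, 3096 unmatched). No molecular identifiers are described, so intervals cover counting error only.

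The members and the gene lists were chosen with earlier results of these data known. Named are the 6 members, their 2 nearest genes each and, per list, the genes with the smallest p in each direction of level and fraction new. CCNT1, CDK11A and CDK11B are named outside this rule. The test of emetine with against without s4U was added after seeing the data. Alternatives covered scaling, filters, DESeq2 1.42.0, rates, weights, a length trend, a replicate block and leaving out each library.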

Additional observations from a re-analysis of the deposited data

How the results depend on the processing

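The direction of the level, fraction new and unlabeled changes held in every member under every alternative, and no call was reversed. Spike-in scaling raised the median level change of all genes from 0.03 to 0.71 and left 0 members and 60 genes raised. DESeq2 raised 820 genes and 3 members, and with no filter on low counts 3 members were raised. With the length trend removed, 5 members and 720 genes were raised. Leaving out 1 library gave 0 to 6 members and 4 to 1367 genes raised in level, 1 to 5 members and 98 to 2522 genes lowered in fraction new, 0 to 1 members and 15 to 1801 genes called in labeled reads, 3 to 6 members and 282 to 1447 genes raised in unlabeled reads, and 0 to 16 genes called in junction share. A minimum of 50 or 500 reads lowered the fraction new in 298 or 227 genes and in 2 members each. Causes were not tested. At 500 reads CLK4 had no value, and among reads without conversions neither CLK1 nor CLK4 had a junction share.

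Replicate numbers are shared by the groups, but deviations of same-numbered libraries from their group means in level did not go together (correlations 0.07, −0.002 and −0.15 over 11775 genes). Deviations from a group mean depend on each other, and emetine replicate 3 had a strong length trend. These correlations therefore gave no sign of a pairing but cannot exclude it. With a replicate block, 0 members and 75 genes were raised in level, 350 genes were raised in unlabeled reads and 6 genes were called in junction share. In fraction new, 3 members and 647 genes were lowered with the block. CCNL1 then had an adjusted p of 0.0562 and CLK4 of 0.0820 in level.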
